A study of Mus musculus with 10 samples.

Results

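Transcripts of 8 genes of death receptor signalling and caspase activation were followed in mouse granulosa cells: Tnfrsf1a, Fadd, Ripk1, Casp8, Cflar, Casp9, Apaf1 and Xiap. They were taken by gene symbol, and all 8 were found among the 35087 symbols of the deposited tables. Captured cells came from ovaries of wild-type female C57B6/J mice aged 3 weeks. In 4 libraries the mice had been given the antioxidant N-acetyl-L-cysteine (NAC) at 150 mg/kg, and in 6 libraries saline, in both cases by intraperitoneal injection on 3 consecutive days with ovaries taken on day 4. The cells were cut out by laser microdissection and their polyadenylated RNA was amplified by GEO-seq, a protocol for small captured areas. The labels put all 10 libraries in batch 1 without saying which animal each came from, so p-values measure the spread between captures, are too small if some captures share an animal, and may reflect technical spread.

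Death receptors of the TNF receptor family carry a cytoplasmic death domain. When TNF binds TNFR1, the adaptor TRADD and the kinase RIPK1 gather at the receptor and can start NF-kB signalling, and a second complex with FADD can form that activates caspase-8. The decoy cFLIP competes with caspase-8 at FADD. A separate route starts at mitochondria, where released cytochrome c assembles APAF1 into the apoptosome, which activates caspase-9, while XIAP binds and blocks caspase-9 and the executioner caspases. In ovarian follicles, granulosa cell apoptosis accompanies atresia, the loss of follicles before ovulation, which is the subject named in the title of the study.

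Caspases cleave proteins with an active-site cysteine, and the decoy Cflar is a relative of Casp8 that lacks it. The coding stretches around this site are shown because they separate the initiator caspases from the decoy. They were read from GENCODE M21 transcripts (GRCm38) by longest reading frame, and the capitals mark the codon at the active-site position, placed by the stretch shared just upstream. Each run has 45 bases.

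Casp8: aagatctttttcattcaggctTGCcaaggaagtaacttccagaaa
Casp9: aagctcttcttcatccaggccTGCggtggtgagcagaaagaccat
Cflar: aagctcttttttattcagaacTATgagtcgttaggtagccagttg

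The capitals are a cysteine codon (TGC) in Casp8 and Casp9 and a tyrosine codon (TAT) in Cflar. Over aligned positions, the translated frame of Cflar is 32.5% identical to that of Casp8, and that of Casp9 is 33.9% identical to it.

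Depth differed between the groups. NAC libraries held 116461 to 1667181 estimated reads and saline libraries 1340324 to 2488408, and the shallowest, NAC 3, is one in which 1 read equals 8.05 CPM (read counts brought to 1 library total by TMM factors). NAC 2 and NAC 3 also had fewer genes detected (10434 and 10266) than the other libraries (14022 to 16165). The 9 granulosa markers all had reads in both groups, which fits the labelled cell type, but their summed level was 3676 to 9738 CPM in NAC and 9393 to 36413 CPM in saline. Most of that sum was Inha (mean 6315 CPM in NAC and 23337.5 CPM in saline). Nr5a2 averaged 256 CPM in NAC and 245 CPM in saline, Fst 499.9 in NAC and 623 in saline, and Foxl2 130 in NAC and 161 in saline. The remaining granulosa markers had lower means in NAC by a wider margin. Inhba had 41.0 CPM in NAC and 433 CPM in saline, and Hsd17b1 336 in NAC and 1087 in saline. Fshr had 44.9 CPM in NAC and 99.4 CPM in saline, Amh 124.5 in NAC and 224 in saline, and Cyp19a1 9.82 in NAC and 24.4 in saline. Markers of other cells were present too: 9 of 10 oocyte markers had reads in NAC and 10 of 10 in saline (summed 143 to 1055 CPM in NAC and 1.33 to 1492 CPM in saline), with Figla at 0 in NAC, and 8 of 8 theca and stroma markers in both (64.4 to 1847 CPM in NAC and 95.5 to 969 CPM in saline). The 8 leukocyte markers summed to 0 to 88.1 CPM in NAC and 0.901 to 21.01 CPM in saline, and the 7 markers of endothelium and smooth muscle to 48.3 to 696 CPM in NAC and 11.3 to 320.5 CPM in saline. The part of these mixtures in the results below was not tested, and in captured tissue fewer cells of a type and less RNA per cell cannot be told apart.

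All 8 members passed the filter on low counts, and 0 of 8 changed between NAC and saline in edgeR's quasi-likelihood test at an adjusted p under 0.05. The same call was made for 0.0731% of the 10945 genes tested, 0.0183% higher and 0.0548% lower in NAC. At an unadjusted p under 0.05 there were 3 members, Tnfrsf1a and Fadd with lower and Ripk1 with higher values in NAC, where 16.2% of all tested genes met that mark, 7.82% higher and 8.34% lower. The groups did not overlap for 2 members, both lower in NAC, against 5.38% of all tested genes, 1.96% higher and 3.43% lower. The 8 log2 folds had a median of 0.03, with 4 above and 4 below 0. All tested genes had a median of 0.02, with 51.0% above and 49.0% below 0. DESeq2 called 0 of 8 as well, with a lowest adjusted p of 0.0680 for Tnfrsf1a, and no member was called under any of the 22 alternative fits, DESeq2 included.

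**Figure D1:**
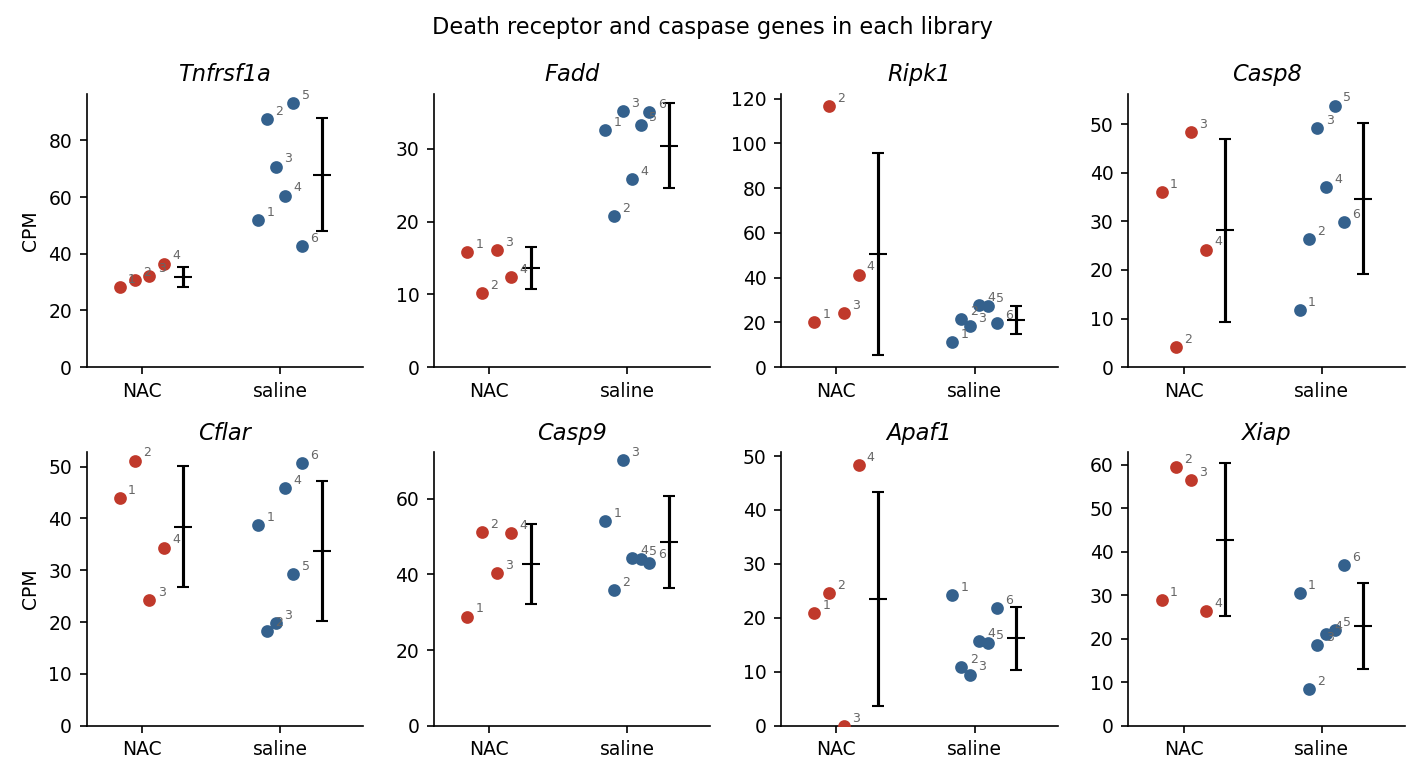
CPM of each member in each library, with NAC (4 libraries) left of saline (6 libraries); points are libraries with their replicate number and bars give the mean and SD. The NAC points of Tnfrsf1a and Fadd all lie below the saline points, and the highest Ripk1 value, 116.7 CPM, belongs to NAC 2.

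Tnfrsf1a encodes the TNF receptor TNFR1, the entry point of the pathway (GRCm38 chromosome 6, 125349362 to 125362484). It had 28.1, 30.7, 32.2 and 36.5 CPM in NAC 1 to 4, while saline libraries ran from 42.7 through a median of 65.7 to 93.3 CPM. Every NAC library lay below every saline library, and NAC values were close together. NAC libraries averaged 31.9 ± 3.51 CPM (SD, n = 4), against 67.8 ± 19.9 CPM for saline libraries (SD, n = 6), which gave a log2 fold of -1.08 (SE 0.35, 95% interval -1.82 to -0.35, edgeR adjusted p = 0.152, unadjusted p = 0.00622). The value for NAC 3 rests on 4 reads, whose exact Poisson interval is 8.78 to 82.5 CPM. Once GC content and transcript length were entered as offsets, the log2 fold was -0.49 (edgeR adjusted p = 0.582).

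Fadd, which encodes the adaptor that brings caspase-8 to death receptors (chromosome 7, 144577318 to 144582463), showed the same order of groups. NAC 1 to 4 had 15.9, 10.2, 16.1 and 12.4 CPM, and saline libraries 20.7 to 35.2 CPM with a median of 32.9. The groups did not overlap, although the gap between the highest NAC and the lowest saline library was narrow. Means were 13.6 ± 2.85 CPM for NAC (SD, n = 4) against 30.5 ± 5.87 CPM for saline (SD, n = 6), with a log2 fold of -1.18 (SE 0.43, 95% interval -2.08 to -0.28, edgeR adjusted p = 0.200, unadjusted p = 0.0135). These levels come from few reads, 52 over the NAC libraries and 366 over saline, and NAC 3 contributed 2 (exact Poisson interval 1.95 to 58.2 CPM). The log2 fold was -1.06 with GC and length offsets (edgeR adjusted p = 0.276), between -1.37 and -1.09 with each library left out, and -1.15 without NAC 2 and NAC 3. The antisense gene Faddos is annotated at the locus and was not analysed here, and whether counting used strand is not given in the sources used here.

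Ripk1 encodes the kinase that stands between NF-kB signalling and cell death at TNFR1 (chromosome 13, 34002363 to 34037147), and its highest value stood in NAC 2. NAC 1 to 4 had 20.2, 116.7, 24.2 and 41.4 CPM, and saline libraries 11.1 to 27.8 CPM with a median of 20.6. NAC 1 and NAC 3 fell within the saline range, while NAC 2 and NAC 4 lay above it. Means were 50.6 ± 45.0 CPM for NAC (SD, n = 4) against 20.96 ± 6.19 CPM for saline (SD, n = 6), with a log2 fold of 1.29 (SE 0.48, 95% interval 0.28 to 2.31, edgeR adjusted p = 0.213, unadjusted p = 0.0159). Without NAC 2 the log2 fold was 0.48 (edgeR adjusted p = 0.626), and without NAC 2 and NAC 3 it was 0.53. It was 0.74 with GC and length offsets, 0.66 with limma-voom sample weights and 0.85 with the number of detected genes as a covariate. NAC 2 was also the library with the lowest summed granulosa markers (3676 CPM) and the highest summed theca and stroma markers (1847 CPM), and their part in its Ripk1 value was not tested. Serpinb6a overlaps Ripk1 on the other strand and had 1239 reads over NAC and 3701 over saline, so shared reads cannot be told apart if counting ignored strand. The pseudogene Gm17084 overlaps it on the same strand and had 19 reads over NAC and 16 over saline. These totals are not scaled for depth and do not compare levels between the groups. After TMM scaling, NAC libraries held 3860585 reads in all and saline libraries 12035579.

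Starts of these 3 genes are shown because they had the smallest unadjusted p among the members. Each run covers 250 bases before to 50 after the start in RefSeq (GRCm38.p6), given 5′ to 3′ on the gene's strand. Capitals mark the HIF core letters ACGTG or GCGTG and the FOXO letters TGTTTAC on either strand, searched because the study's title names HIF1 and FOXO1. Ripk1 has a further start in the table that is not shown.

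Tnfrsf1a, chr6:125349473-125349772, plus strand: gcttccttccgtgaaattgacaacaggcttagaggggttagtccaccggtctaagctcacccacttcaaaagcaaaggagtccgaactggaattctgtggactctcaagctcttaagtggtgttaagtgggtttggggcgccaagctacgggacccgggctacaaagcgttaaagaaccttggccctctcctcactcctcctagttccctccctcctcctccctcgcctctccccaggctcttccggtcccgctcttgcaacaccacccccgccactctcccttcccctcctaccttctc
Fadd, chr7:144582392-144582691, minus strand: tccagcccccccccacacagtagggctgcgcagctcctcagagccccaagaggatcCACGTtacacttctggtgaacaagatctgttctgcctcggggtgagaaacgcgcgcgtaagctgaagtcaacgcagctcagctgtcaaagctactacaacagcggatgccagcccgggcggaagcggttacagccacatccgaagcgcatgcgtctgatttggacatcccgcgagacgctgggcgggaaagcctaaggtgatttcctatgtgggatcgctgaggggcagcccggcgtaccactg
Ripk1, chr13:34002113-34002412, plus strand: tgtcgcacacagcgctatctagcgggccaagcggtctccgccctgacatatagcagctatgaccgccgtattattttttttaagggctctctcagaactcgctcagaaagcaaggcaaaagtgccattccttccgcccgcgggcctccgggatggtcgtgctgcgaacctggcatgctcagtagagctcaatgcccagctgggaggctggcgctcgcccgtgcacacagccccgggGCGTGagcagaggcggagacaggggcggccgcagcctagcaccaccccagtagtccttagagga

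Fadd held 1 ACGTG match, Ripk1 held 1 GCGTG match and Tnfrsf1a held neither. Among all 32851 windows of the table, 19.6% held ACGTG, 32.4% held GCGTG and 43.8% held at least 1 of them, so these matches are common. TGTTTAC, found in 3.65% of all windows, was in none of the windows of the 8 members. A match is a run of letters, not a measured binding site.

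Casp8, the initiator caspase recruited by FADD (chromosome 1, 58795374 to 58847503), varied widely within both groups. NAC 1 to 4 had 36.1, 4.10, 48.3 and 24.2 CPM, and saline libraries 11.8 to 53.8 CPM with a median of 33.4. NAC 2 held 2 Casp8 reads and lay below every saline library, while the other NAC libraries were inside the saline range. The highest NAC value, in NAC 3, rests on 6 reads (exact Poisson interval 17.7 to 105 CPM). The log2 fold was -0.41 (SE 0.55, 95% interval -1.56 to 0.75, edgeR adjusted p = 0.737), and without NAC 2 it was -0.075. Cflar, the decoy that blocks caspase-8 activation (chromosome 1, 58711508 to 58758884), had 44.0, 51.2, 24.2 and 34.4 CPM in NAC 1 to 4 and 18.4 to 50.7 CPM in saline (median 34.0). NAC 3 held 3 Cflar reads (exact Poisson interval 4.98 to 70.6 CPM). Groups overlapped over nearly their whole range, with a log2 fold of 0.23 (SE 0.40, 95% interval -0.61 to 1.08, edgeR adjusted p = 0.799) that was -0.22 with GC and length offsets.

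Because both proteins bind FADD, the ratio of Cflar to Casp8 reads was compared, a value that does not depend on library scaling. On the log2 scale, with 0.5 read added to each count, it was 0.28, 3.37, -0.87 and 0.49 in NAC 1 to 4, and it ran from -1.29 to 1.69 in saline. A single capture, NAC 2, set the upper end, with 2 Casp8 reads. The value in NAC 3 rests on 3 Cflar and 6 Casp8 reads. The mean log2 ratio was 0.82 ± 1.80 for NAC (SD, n = 4) against 0.016 ± 1.12 for saline (SD, n = 6), a difference of 0.80 (exact two-sided permutation p = 0.438 over 210 splits, adjusted p = 0.438 over 2 ratios). Without NAC 2 the difference was -0.049.

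Casp9, the initiator caspase of the apoptosome (chromosome 4, 141793612 to 141815976), varied less between libraries than Casp8. It had 28.9, 51.2, 40.3 and 51.0 CPM in NAC 1 to 4, against 35.8 to 70.3 CPM in saline with a median of 44.2. NAC 1 alone lay below the saline range. The log2 fold was -0.18 (SE 0.34, edgeR adjusted p = 0.819), with a 95% interval of -0.90 to 0.54 that reaches from a fold of 0.536 to 1.46. Its value turned positive, at 0.18, with GC and length offsets, and at 0.076 on log2(TPM + 1). Cela2a and Ctrc overlap Casp9 on the other strand and had 24 and 4 reads over NAC and 114 and 25 over saline. These totals are not scaled for depth either.

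Apaf1 encodes the scaffold of the apoptosome (chromosome 10, 90989311 to 91082770). NAC 1 to 4 had 20.9, 24.6, 0 and 48.3 CPM, against 9.47 to 24.2 CPM in saline with a median of 15.5. The 0 in NAC 3 allows a level of up to 24.2 CPM (3 reads, counting error only), so it does not set NAC 3 apart from saline. NAC 4 was the highest library of either group. The log2 fold was 0.70 (SE 0.56, 95% interval -0.48 to 1.89, edgeR adjusted p = 0.548). It was 1.07 without NAC 2 and NAC 3 (edgeR adjusted p = 0.287), and -0.31 on the scale of log2(TPM + 1). When each library was left out in turn it lay between 0.042, without NAC 4, and 0.92, without NAC 3.

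Xiap encodes an inhibitor of caspase-9 and of executioner caspases (X chromosome, 42059679 to 42109656). NAC 1 to 4 had 28.9, 59.4, 56.4 and 26.3 CPM, and saline libraries 8.48 to 36.9 CPM with a median of 21.5. NAC 2 and NAC 3, the libraries with the fewest detected genes, lay above all saline libraries, and NAC 1 and NAC 4 lay within the saline range. The value for NAC 3 rests on 7 reads, whose exact Poisson interval, 22.7 to 116 CPM, reaches into the saline range. Means were 42.7 ± 17.6 CPM for NAC (SD, n = 4) against 22.9 ± 9.85 CPM for saline (SD, n = 6), with a log2 fold of 0.83 (SE 0.46, 95% interval -0.14 to 1.80, edgeR adjusted p = 0.378). The log2 fold was 0.53 without NAC 2 and 0.23 without NAC 2 and NAC 3. It was -0.055 with GC and length offsets.

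The ratio of Xiap to Casp9 reads set the inhibitor against its target within each library. Its log2 value was 0, 0.21, 0.45 and -0.95 in NAC 1 to 4, and -2.05 to -0.22 in saline. NAC 1, NAC 2 and NAC 3 lay above all saline libraries and NAC 4 within them. The ratio in NAC 3, the highest of the NAC libraries, rests on 7 Xiap and 5 Casp9 reads. The mean log2 ratio was -0.073 ± 0.61 for NAC (SD, n = 4) against -1.18 ± 0.69 for saline (SD, n = 6), a difference of 1.11 that did not pass after adjustment (exact two-sided permutation p = 0.0286, adjusted p = 0.0571 over 2 ratios; the smallest p this test can give is 0.00952). It passed without NAC 4, the NAC library within the saline range (difference 1.40, exact permutation p = 0.0238, adjusted p = 0.0476). Leaving NAC 4 out separated the groups fully, so that p is the smallest the test could then give. With GC and length offsets for both genes, an alternative chosen after seeing the data, the difference was -0.021 (exact permutation p = 0.971), and without NAC 2 and NAC 3 it was 0.70.

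**Figure D2:**
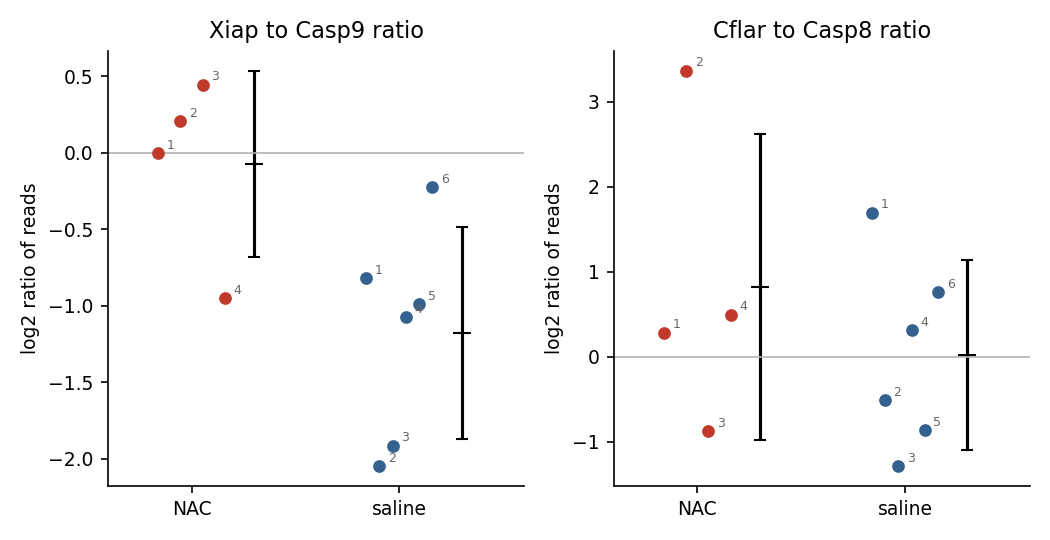
Log2 ratio of estimated reads in each library for Xiap over Casp9 and for Cflar over Casp8, NAC left of saline, with replicate numbers and mean and SD bars. For Xiap over Casp9, 3 NAC libraries lie at 0 to 0.45, above all saline libraries, and NAC 4 lies at -0.95 among them; for Cflar over Casp8, NAC 2 lies at 3.37.

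A trend with base composition ran through the comparison of NAC with saline. Among genes whose longest transcript had a GC content of 31.0% to 44.6% (2713 genes), the log2 fold had a median of 0.44, and at 54.2% to 72.8% (2713 genes) its median was -0.41. Xiap has a GC content of 36.8%, Cflar 44.4%, Ripk1 45.1%, Apaf1 46.0%, Casp8 46.6%, Fadd 51.2%, Casp9 53.4% and Tnfrsf1a 55.9%. With GC and length offsets the log2 folds, in the same order of genes, were -0.055 for Xiap, -0.22 for Cflar, 0.74 for Ripk1, 0.39 for Apaf1, -0.37 for Casp8, -1.06 for Fadd, 0.18 for Casp9 and -0.49 for Tnfrsf1a. The part of base composition in any of these folds was not tested beyond these values.

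**Figure D3:**
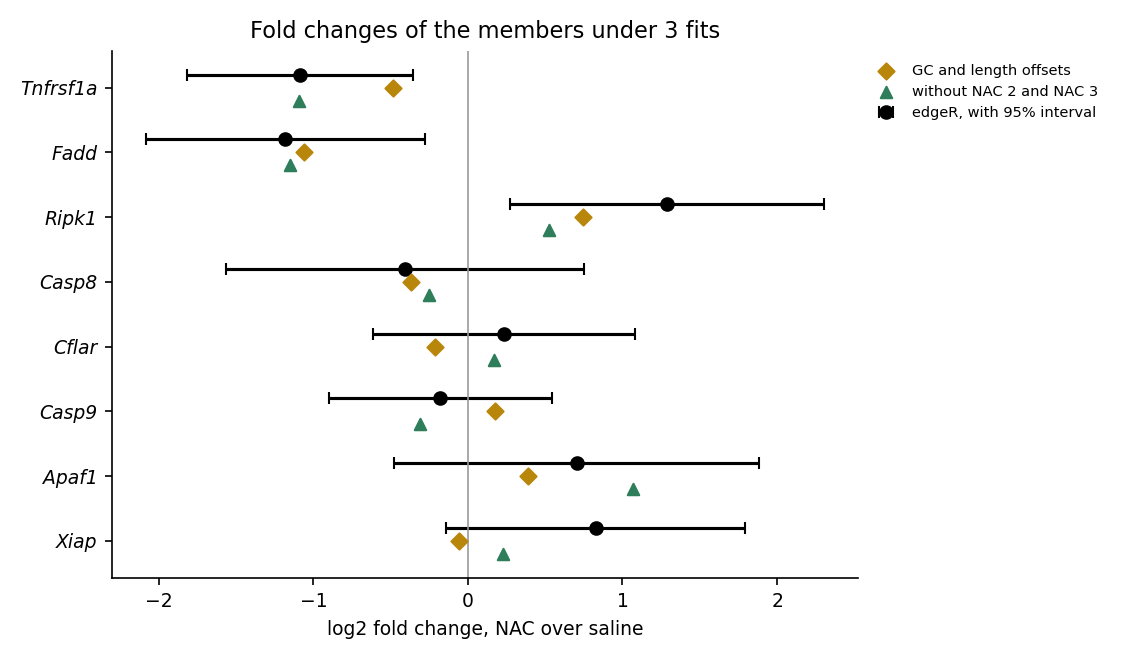
Log2 fold change of each member, NAC over saline, from edgeR with its 95% interval (black), with GC and length offsets (diamonds) and without NAC 2 and NAC 3 (triangles). Fadd lies between -1.18 and -1.06 in all 3 fits, while Xiap lies at 0.83, -0.055 and 0.23.

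Levels of the members were compared per length, as CPM per kilobase of the longest GENCODE transcript. On this scale Tnfrsf1a stood first in both groups, with 14.8 ± 1.63 for NAC (SD, n = 4) against 31.4 ± 9.24 for saline (SD, n = 6), higher in saline than 78.4% of the tested genes. In the saline order Casp8 followed with 10.9 ± 7.29 in NAC and 13.4 ± 5.99 in saline, and Casp9 with 11.0 ± 2.73 in NAC and 12.5 ± 3.11 in saline. Fadd averaged 3.50 ± 0.729 in NAC and 7.80 ± 1.503 in saline. The low end held Cflar (5.85 in NAC and 5.14 in saline), Xiap (6.25 in NAC and 3.35 in saline), Ripk1 (7.82 in NAC and 3.24 in saline) and Apaf1 (3.57 in NAC and 2.47 in saline). Neighbours in the saline order overlapped in range throughout, apart from Casp9 and Fadd. Fadd ranked 4 of the 8 in saline and last in NAC. In NAC it lay just under Apaf1 (3.57 ± 3.01), whose range of 0 to 7.35 took in that of Fadd (2.62 to 4.13).

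**Figure D4:**
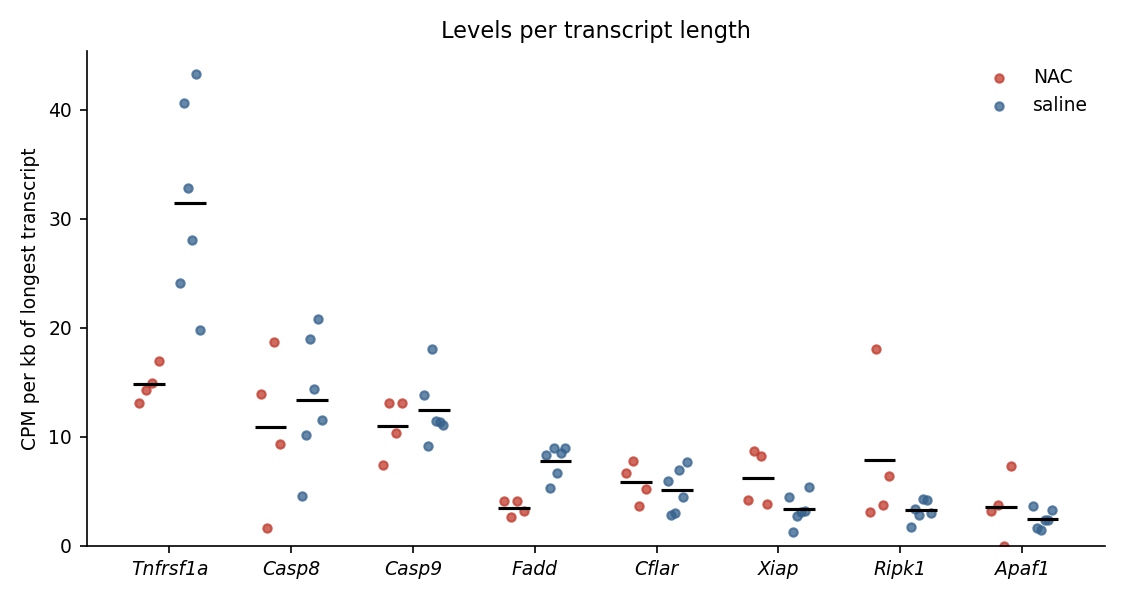
CPM per kilobase of the longest annotated transcript for each member, NAC (red) left of saline (blue), 1 point per library with the mean as a bar, ordered by the saline mean. Tnfrsf1a has the highest mean in both groups (14.8 in NAC and 31.4 in saline), and Apaf1 the lowest in saline (2.47).

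The order was different in deposited TPM. There Cflar stood at 26.8 ± 12.5 for NAC (SD, n = 4) against 18.3 ± 9.85 for saline (SD, n = 6), rank 3 of the 8 in saline. Tnfrsf1a, at 17.3 ± 3.70 TPM in NAC and 35.6 ± 11.4 TPM in saline, was highest in saline but stood behind Cflar, Casp9 (22.6) and Ripk1 (18.2) in NAC. The deposited length of Cflar ran from 139.5 to 753 bases, and in 7 of 10 libraries was below the shortest of its 13 GENCODE transcripts (351 bases). That of Casp8 was 716 to 1104 bases, below its shortest transcript (1628 bases) in all 10. Apaf1 ran from 117 to 3030 bases, where the longest belongs to NAC 3 with 0 reads. Fadd, with 1 transcript, was listed at 3903 bases throughout, and had 3.91 ± 1.00 TPM in NAC and 8.25 ± 1.70 TPM in saline. The deposited length is not the length that TPM divides by. In saline 1, Tnfrsf1a had 75 reads, a deposited length of 539 bases and 32.3 TPM. Fadd had 47 reads, 3903 bases and 10.6 TPM in the same library. The part of length in the TPM order was not tested. The annotation release behind the deposited lengths is not given in the sources used here.

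The wider pathway was described with 58 further genes in 11 roles, of which 45 passed the filter. None changed at an adjusted p under 0.05 (0 of 45 by edgeR, 0 by DESeq2). At an unadjusted p under 0.05 there were 5 (11.1%, against 16.2% of all tested genes), 2 with higher and 3 with lower values in NAC. There were 23 positive and 22 negative log2 folds, and their median of 0.05 lay beside 0.02 for all tested genes. The groups did not overlap for 1 gene, Chuk (2.2% of the 45, against 5.38% of all tested genes).

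Death ligands were scarce. Tnf, Fasl and Lta had 0 reads in all 10 libraries, which allows up to 0.189 CPM over the series (3 reads). Tnfsf10, which encodes the ligand TRAIL, had 25 reads over NAC and 10 over saline (3.63 ± 4.83 CPM in NAC and 0.763 ± 1.29 CPM in saline). Tnfsf12, which encodes TWEAK, had 13 reads over NAC and 18 over saline (3.72 ± 3.68 CPM in NAC and 1.51 ± 1.37 CPM in saline). Both were under the filter and were not tested. Among the 6 other receptors 4 passed the filter, 3 with positive and 1 with negative log2 folds. Fas was not among them, with 2 reads in 1 NAC library and 0 in saline, which allows up to 0.249 CPM over saline. Tnfrsf1b, which encodes TNFR2, a receptor without a death domain, had 18.6 ± 13.6 CPM for NAC against 33.2 ± 9.49 CPM for saline (SD, n = 4 and 6; log2 fold -0.66, edgeR adjusted p = 0.511), and its log2 fold was -0.26 with GC and length offsets. Tnfrsf21, which encodes death receptor 6, had 14.2 ± 12.3 CPM in NAC and 5.37 ± 4.29 CPM in saline (log2 fold 1.52, edgeR adjusted p = 0.416). Its log2 fold was 1.89 with GC and length offsets.

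Of the 6 other adaptors and regulators of caspase-8, 2 were positive and 4 negative. Traf2, an adaptor and ubiquitin ligase of the TNFR1 complex, had 17.4 ± 16.1 CPM for NAC against 47.2 ± 11.4 CPM for saline (SD, n = 4 and 6; log2 fold -1.22, edgeR adjusted p = 0.304). Daxx, a histone chaperone first described as a partner of Fas, had 24.7 ± 19.9 CPM in NAC and 48.7 ± 19.9 CPM in saline (log2 fold -1.15, edgeR adjusted p = 0.322). The log2 fold of Traf2 was -0.66 without NAC 2 and NAC 3 and -1.17 with GC and length offsets. That of Daxx was -1.03 without NAC 2 and NAC 3 and -0.72 with GC and length offsets. In the NF-kB branch, 8 of 16 tested genes were positive and 8 negative. Rela, which encodes the NF-kB subunit p65, had 45.5 ± 23.9 CPM in NAC and 103 ± 40.3 CPM in saline (log2 fold -1.15, edgeR adjusted p = 0.187), the smallest adjusted p of the 45, and its log2 fold was -0.57 with GC and length offsets (edgeR adjusted p = 0.485). Chuk, which encodes the kinase IKK-alpha, had 66.9 ± 15.5 CPM in NAC and 35.8 ± 8.46 CPM in saline (log2 fold 0.88, edgeR adjusted p = 0.221), and its log2 fold was 0.45 with the offsets and 0.57 without NAC 2 and NAC 3. The necroptosis genes Ripk3 and Mlkl were near the filter, with 6.19 ± 8.61 and 6.16 ± 6.72 CPM in NAC and 7.91 ± 8.15 and 5.65 ± 5.97 CPM in saline, and edgeR adjusted p-values of 0.994 and 0.890.

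At the mitochondrial end, Cycs, which encodes cytochrome c, had 187 ± 128 CPM for NAC against 95.01 ± 26.8 CPM for saline (SD, n = 4 and 6; log2 fold 0.94, edgeR adjusted p = 0.242). Its log2 fold was 0.30 with GC and length offsets and -0.13 without NAC 2 and NAC 3. Casp2, an initiator caspase outside the apoptosome, had a log2 fold of 0.16 (edgeR adjusted p = 0.893) that was -0.98 without NAC 2 and NAC 3. The executioner caspase gene Casp6 had 155 ± 33.4 CPM in NAC and 182 ± 60.9 CPM in saline (log2 fold -0.26, edgeR adjusted p = 0.686). Of the other inhibitor of apoptosis genes, Birc2, a ubiquitin ligase of the TNFR1 complex, had a log2 fold of 0.56 and Birc6, a large ubiquitin-conjugating enzyme, of 0.24 (edgeR adjusted p = 0.478 and 0.646). With GC and length offsets the log2 fold of Birc2 was 0.11 and that of Birc6 was -0.23.

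Among proteins that counter XIAP or leave mitochondria, Htra2, a mitochondrial serine protease gene, had 36.5 ± 14.6 CPM for NAC against 68.0 ± 21.96 CPM for saline (SD, n = 4 and 6; log2 fold -0.85, edgeR adjusted p = 0.271). With GC and length offsets its log2 fold was -0.15 (edgeR adjusted p = 0.893). Xaf1, which encodes an XIAP-associated factor, had 9.76 ± 8.15 CPM in NAC and 3.45 ± 2.43 CPM in saline (log2 fold 1.70, edgeR adjusted p = 0.316). Its log2 fold was 1.79 with the offsets. The caspase-activated nuclease gene Dffb had a log2 fold of -0.85 and its inhibitor gene Dffa of 0.56 (edgeR adjusted p = 0.567 and 0.680), and with the offsets these were -0.56 for Dffb and 1.09 for Dffa. The 4 inflammatory and other caspases, Casp1, Casp4, Casp12 and Casp14, were all under the filter, with 1, 4, 3 and 0 reads over NAC and 1, 3, 6 and 2 over saline. Their means were 0.512, 0.537, 0.541 and 0 CPM in NAC and 0.0785, 0.237, 0.527 and 0.231 CPM in saline.

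**Figure D5:**
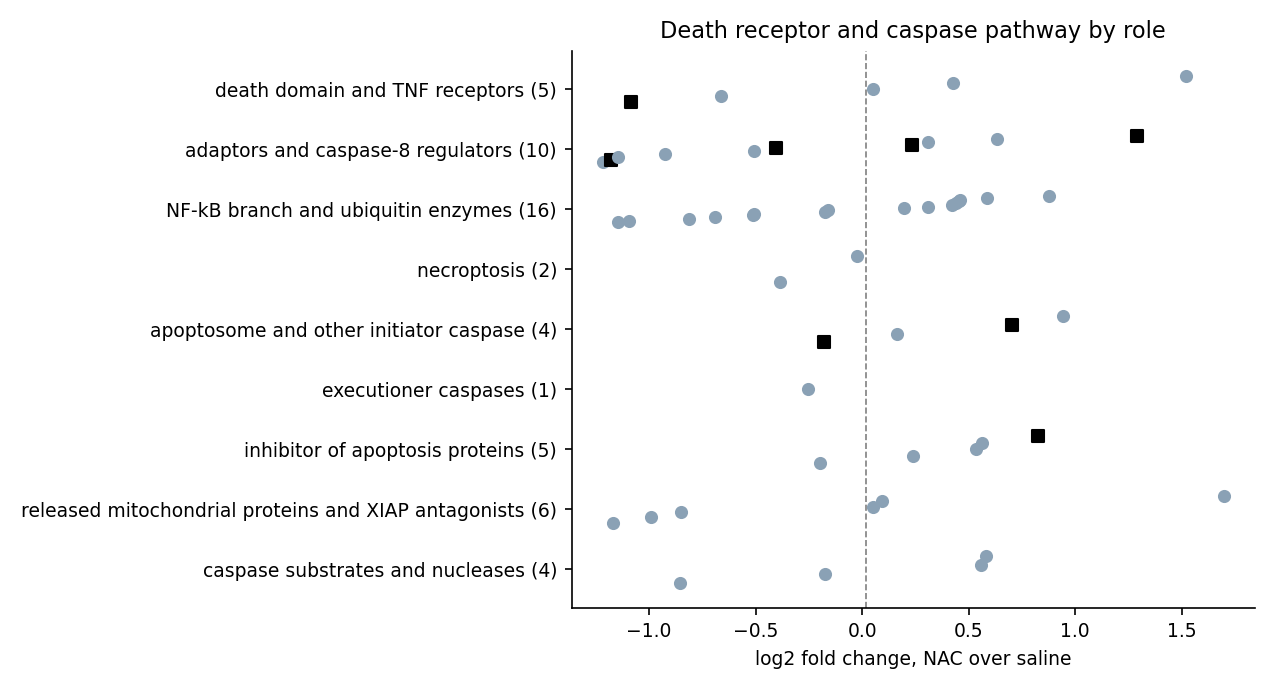
Log2 fold change, NAC over saline, of the tested pathway genes by role, with the number of tested genes in parentheses; black squares are the 8 members, grey circles the other genes, and the dashed line is the median of all tested genes (0.02). Values lie on both sides of that line in every role with more than 2 tested genes, and the other genes range from -1.22 to 1.70.

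Genes whose profile over the 10 libraries was nearest to a member were found by the root mean square difference of centred log2 CPM, among 9559 genes with a mean of at least 10 CPM. For Fadd this was Commd10, at 0.149 against a median of 0.913 over all candidates, with 38.3 CPM in NAC and 78.7 CPM in saline. The nearest of 9559 candidates lies under their median by selection, so that median is no test of closeness. Mrpl10 was nearest to Tnfrsf1a (0.264), Nptn to Ripk1 (0.189), Iqsec1 to Casp8 (0.292), Ero1lb to Cflar (0.301), Qdpr to Casp9 (0.185), 4930402H24Rik to Apaf1 (0.325) and Pnpla8 to Xiap (0.284). The libraries in these profiles share their depth and base composition trend.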

How the data were processed

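Gene expression was measured in 4 NAC and 6 saline libraries. The authors deposited 1 table per library with estimated counts, TPM, transcript lengths and effective lengths, per the file headers. The submitters' processing notes name Salmon and GRCm38, with versions not given in the sources used here. The deposited TPM values do not follow reads divided by the deposited length. The effective length deposited beside it was not analysed here. Reads of similar or overlapping genes may be split between them. Rows without a symbol (1548, 0.496% to 0.638% of reads) were left out.

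Estimated counts were rounded and tested over all genes with edgeR 4.0.16 in R 4.3.3 (TMM factors, default low-count filter, robust quasi-likelihood test, Benjamini-Hochberg adjustment over 10945 genes, threshold 0.05). Fold changes are NAC over saline, and the SE was taken from the fold and its F value. CPM use TMM factors. Ratios were compared with exact permutation tests in scipy 1.17.1. Poisson intervals (95%) and limits of 3 reads cover counting error only, because amplification can copy 1 molecule into many reads. Offsets were smooth trends on GC content and length of the longest GENCODE M21 transcript, centred in each library. Applying the offsets to the ratios was chosen after seeing the data. Alternatives used DESeq2 1.42.0, limma 3.58.1, other factors and filters, covariates and libraries left out.

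The members and lists were chosen with earlier results of these data known. Genes named besides the 8 members were, from each role, the up to 2 with the smallest unadjusted p, and for each member the gene with the nearest profile. Genes under the filter, genes that overlap a member and single cell type markers were named outside this rule, after their values were seen. Some genes of the pathway are not reported here. Promoters came from RefSeq, where all 8 members matched.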

Additional observations from a re-analysis of the deposited data

Results flagged for a closer look

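Values of the 8 members, the 17 named pathway genes and both ratios were screened within each group for a library far from the others, over 54 groups of 4 or 6 values, of which chance flags about 1 in 20. No member and no ratio was marked. Rela had 180.9 CPM in saline 5, above 64.0 to 102 CPM in the other saline libraries, and its log2 fold without that library was -0.94. Mlkl had 16.11 CPM in NAC 3, above 2.05 to 4.33 CPM in the other NAC libraries, and its log2 fold without NAC 3 was -1.002. That value lies under the 24.2 CPM that 3 reads equal in NAC 3. Birc6 had 177.2 CPM in NAC 3, above 137 to 140 CPM in the others, and its log2 fold without NAC 3 was 0.10. Dffb had 0 CPM in NAC 3, below 7.94 to 9.13 CPM in the others, where 3 reads equal 24.2 CPM, and its log2 fold without NAC 3 was -0.72. In 3 of these 4 values the library was NAC 3, the shallowest.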

How the results depend on the processing

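Of 176 member log2 folds under 22 alternatives, 169 kept their sign and none was called; of 363 for the named pathway genes, 337 did. The count of 8 called genes became 427 with DESeq2, 481 with limma-voom sample weights, 226 without a filter, 42 with detected genes as a covariate, 18 with GC and length offsets, 2 without NAC 2 and NAC 3, and 1 with the replicate block; with each library left out it ran from 1 to 58. The cause was not tested. Correlations of deviations between NAC and saline libraries of the same replicate number were -0.008, 0.01, 0.009 and 0.196 for numbers 1 to 4. Among these, only NAC 4 had its highest correlation with the saline library of its own number. These values cannot decide whether samples were paired, because the labels do not tie libraries to animals. The median of all genes was 0.02, but 0.19 with library size alone and 0.39 with DESeq2 over 21234 genes.

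Signs turned with GC and length offsets for Cflar (-0.22), Casp9 (0.18), Xiap (-0.055), Ripk3 (0.30), Birc6 (-0.23) and the Xiap to Casp9 ratio (-0.021). On log2(TPM + 1) and log2(TPM + 0.1) they turned for Casp9 (0.076 and 0.077), Apaf1 (-0.31 and -1.05), Mlkl (0.67 and 1.27) and Dffa (-0.35 and -1.13), and on log2(TPM + 0.1) alone for Xaf1 (-0.0028). Without NAC 2 and NAC 3 they turned for Ripk3 (0.63), Cycs (-0.13), Casp2 (-0.98) and Birc2 (-0.25). Sample weights turned Ripk3 (1.01), Casp2 (-0.79) and Dffa (-0.016). The covariate turned Casp2 (-0.48), the block Mlkl (1.16), and RLE factors and library size alone Ripk3 (0.014 and 0.19). With each library left out, ranges that crossed 0 were -1.33 to 0.53 for Ripk3, -0.73 to 0.36 for Casp2, -0.0028 to 0.70 for Birc2 and -0.049 to 1.36 for the Cflar to Casp8 ratio. The Xiap to Casp9 ratio ran from 0.93 to 1.40 and passed only without NAC 4, the NAC library within the saline range.

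Depth limits these values most in NAC 3, which held 0 to 7 reads for each member.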
